A study of Mus musculus with 3186 samples.

Results

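The cells described here are the Slc38a5-positive, Vcam1-positive endothelial cells of the adult mouse brain, which carry the working name venous Vcam1-positive endothelial cells. They were picked one by one from raw read counts scaled to CPM, a gene's reads per 1000000 reads of the cell. A member had Slc38a5 at 50 CPM or more, Vcam1 at 20 CPM or more, Apln under 50 CPM, and at most 1 of the 5 arterial genes Bmx, Gkn3, Sema3g, Vegfc and Efnb2 at 20 CPM or more. This rule found 93 members among 1445 Cldn5-eGFP cells, a share of 6.44% (exact binomial 95% interval 5.23% to 7.83%), in a series of 3186 cells.

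The members were compared with 3 sets of cells from the same mouse line. These were the 1352 other Cldn5-eGFP cells; within them, the 390 Slc38a5-positive Vcam1-low cells, which met every part of the rule except that Vcam1 was under 20 CPM; and, also within them, the 181 arterial-rule cells, which had at least 3 of the 5 arterial genes at 20 CPM or more. All sets came from the brain of C57BL/6 adults, 12 to 15 weeks old, of the genotype Cldn5(BAC)eGFP, in which a bacterial artificial chromosome with the Cldn5 promoter drives green fluorescent protein in endothelium. The sort selected fluorescent cells, so endothelial cells with a silent reporter were not sampled. The 2 other lines of the series, Pdgfrb(BAC)eGFP/NG2dsRed and Pdgfra-H2BGFP, have the same strain and age, and gave 1484 and 257 cells. The labels name no animal, treatment or vessel segment.

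In the brain's vascular tree, blood passes through arteries and arterioles to capillaries and leaves through venules and veins, and endothelial cells change their gene expression along this path. Venous endothelium is marked by the transcription factor Nr2f2 and by von Willebrand factor, and postcapillary venules are the usual place where leukocytes leave the blood. Vcam1 binds leukocyte integrins at this step and is a known target of NF-kappaB signalling, and Slc38a5 is a glutamine transporter of brain microvessels.

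Because the labels tie no cell to an animal, the whole line counts as 1 sample: there is no test and no p-value, and every interval below covers the counting of reads or cells alone. The 1445 cells fall into 4 sets by their column names, EC3 to EC6, taken here as sorting plates since the labels describe 384-well plates. Each pooled level is given beside its 4 plate values, which are not animals. Cell depth ran from 102985 to 593808 reads, with a median of 345114 reads in members and 346241 reads in other Cldn5-eGFP cells. Members had more genes read, with a median of 3063 genes against 2619.5 genes in other Cldn5-eGFP cells, and still 2771 genes against 2338 genes once each cell was thinned to 100000 reads.

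The values that chose the members are a description. Slc38a5 ran from 71.6 to 7327 CPM in members, with a median of 1697 CPM, and Vcam1 from 29.0 to 13411 CPM, with a median of 1017 CPM. The member closest to the Vcam1 threshold had 29.0 CPM from 12 reads, and the closest cell below it had 11.2 CPM from 3 reads. Among cells that met the rest of the rule, the Slc38a5 values closest to the threshold were 71.6 CPM inside and 32.1 CPM outside. The lowest Slc38a5-positive Vcam1-low cell had 54.2 CPM of Slc38a5. Of 517 cells with enough Slc38a5 and 166 with enough Vcam1, 99 had both; 6 of these were lost to Apln and none to the arterial genes. Vcam1 was not limited to Slc38a5-positive cells, since 44 of the 181 arterial-rule cells also reached 20 CPM. Among members, 76 had none of the 5 arterial genes and 17 had 1, most often Vegfc in 11 cells.

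**Figure D1:**
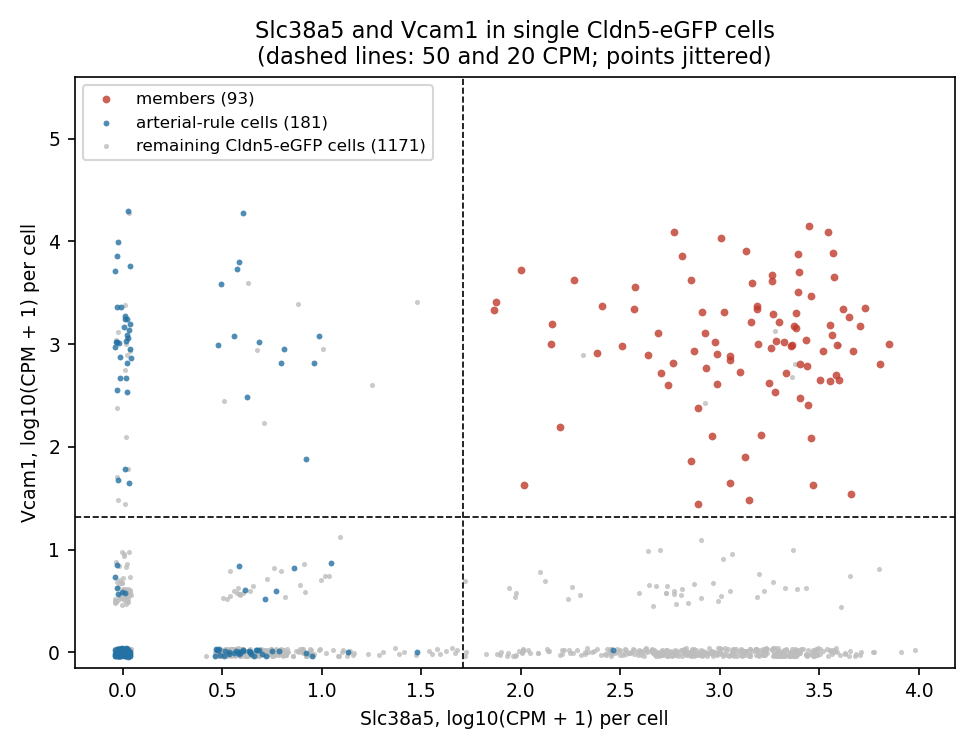
Each point is 1 Cldn5-eGFP cell, with Slc38a5 on the horizontal and Vcam1 on the vertical axis, both as log10 of CPM plus 1 and slightly jittered, and dashed lines at 50 and 20 CPM. The 93 members fill the upper right corner, the 390 Slc38a5-positive Vcam1-low cells lie along the lower right edge, and arterial-rule cells lie to the left, some of them high on the Vcam1 axis.

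Plate EC5 held the most members. It gave 38 members of 361 cells (10.5%, exact binomial interval 7.56% to 14.2%), against 18 of 361 on EC3 (4.99%), 21 of 359 on EC4 (5.85%) and 16 of 364 on EC6 (4.40%). The share of members among all cells that met the rule apart from Vcam1 was also highest on EC5 and next on EC4. It was 29.7% on EC5, 17.4% on EC4, 15.2% on EC6 and 14.0% on EC3, so EC3 and EC6 changed places. Whether these plates came from different animals is not given in the sources used here. Results that rest on EC5 are given below without it.

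The working name was checked on Vwf and Icam1, the markers the rule did not use. Vwf encodes von Willebrand factor, which tethers platelets and is stored in endothelial granules; the gene lies at chr6:125546774-125686679 (GRCm38, plus strand). Its pooled level was 2956, 2081, 2003 and 1800.3 CPM in members on plates EC3, EC4, EC5 and EC6, against 371, 298, 269 and 289 CPM in other Cldn5-eGFP cells. Every plate of members was above every plate of the other cells, as for 285 of all 9822 genes tested (2.9%). The pooled values were 2195 CPM (interval 2179 to 2212) and 308 CPM (307 to 309.8), a log2 ratio of 2.83. In single cells, 88 of 93 members had Vwf at 20 CPM or more (94.6%), against 544 of 1352 other cells (40.2%), 196 of 390 Slc38a5-positive Vcam1-low cells (50.3%) and 108 of 181 arterial-rule cells (59.7%). In the Pdgfrb(BAC)eGFP/NG2dsRed line, sorted for mural cells at a median of 340344 reads, that share was 4.65%.

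Icam1, at chr9:21015985-21028817 (GRCm38, plus strand), encodes an adhesion molecule that binds the beta-2 integrins of leukocytes. It was at 965, 587, 775 and 361 CPM in members on the 4 plates, against 89.4, 45.2, 98.3 and 93.7 CPM in other Cldn5-eGFP cells. The groups did not overlap, as for 285 of all 9822 genes tested (2.9%), and the lowest plate of members was EC6. The pooled levels were 709 CPM and 81.9 CPM, a log2 ratio of 3.10, and 51 of 93 members reached 20 CPM against 140 of 1352 other cells (10.4%). Icam1 was thus read in part of the members: its median was 117 CPM, its highest 7865 CPM, and 1 cell held 12.3% of all its reads in members.

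The general endothelial genes were present. Cldn5, the tight junction protein behind the reporter, was at 37869 CPM in members and 27227 CPM in other Cldn5-eGFP cells, and eGFP at 26752 and 28268 CPM. Markers of other cell types were low: the 8 pericyte markers summed to 30.2 CPM in members and 53.3 CPM in other Cldn5-eGFP cells, the 6 fibroblast markers to 0.163 and 1.41 CPM, the 6 microglia markers to 2.35 and 70.2 CPM, the 5 neuron markers to 3.10 and 58.2 CPM, and the 6 astrocyte markers, which include the endothelial gene Gja1, to 44.7 and 309 CPM. A pair of lists were higher in members: the 6 smooth muscle markers summed to 14.4 CPM in members and 11.5 CPM in other cells, and the 6 oligodendrocyte markers to 13.7 and 9.05 CPM, with Cldn11 as the 1 oligodendrocyte marker that passed the filter, at a log2 ratio of 3.47. An alternative left out wells with 500 CPM or more of another cell class's markers and kept 90 members and 951 other cells. Genes at least 2-fold higher and lower were then 534 and 700, against 544 and 706 with all wells. Of the 181 arterial-rule cells 103 were kept, with 1047 and 1156 genes against 884 and 1044. With Gja1 and Stmn2 not counted as markers, chosen after seeing the data, these counts were 552 and 711, and 902 and 1069. The part of these markers was not tested beyond these values. Selp and Sele, the selectins of inflamed veins, had no read in any of the 93 members, which allows shares of cells of up to 3.23%. The working name thus fits Vwf and Icam1, while the selectins were not read.

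Across the 9822 genes with a mean of at least 5 CPM over both pools, 544 were at least 2-fold higher in members than in other Cldn5-eGFP cells, which is 5.54%, and 706 were at least 2-fold lower, which is 7.19%. These shares are the background for every count in this comparison. The median log2 ratio over all genes was -0.02, so there was no general shift. With 1 sample on each side, a gene is counted here by the size of its ratio only.

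Named genes were those with the 12 highest ratios in each direction that were apart at least 1.5-fold on every plate, so their agreement between plates follows from the choice. On the higher side these included Il1r1, Adh1, Bst1, Wnt5a, Icam1, Fmo1, Nr2f2, Vwf, Car14, F5 and Flrt2. Il1r1, the signalling receptor of interleukin 1, was at 322, 288, 266 and 303 CPM in members on EC3 to EC6, against 20.7, 27.7, 31.8 and 28.6 CPM in other Cldn5-eGFP cells. It stood nearly level over the 4 plates of members, and 46 of 93 members against 100 of 1352 other cells (7.40%) reached 20 CPM.

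Nr2f2, at chr7:70351944-70366735 (GRCm38, minus strand), encodes a nuclear receptor that directs venous identity in mouse embryos. Its level was 72.5, 85.4, 111 and 167 CPM in members and 13.7, 11.5, 12.2 and 16.5 CPM in other Cldn5-eGFP cells, with 55 of 93 members at 20 CPM or more against 95 of 1352 (7.03%). In arterial-rule cells it was read at 1.10 CPM, mostly from 1 cell. Adh1, an alcohol dehydrogenase that oxidises ethanol and retinol, was at 659, 461, 622 and 382 CPM in members and 61.8, 73.9, 55.7 and 24.4 CPM in other cells. Fmo1, a flavin monooxygenase, was at 139 CPM in members and 15.6 CPM in other cells, and F5, coagulation factor V, 99.8 CPM and 15.8 CPM. The signalling ligand Wnt5a, at 50.9 and 4.64 CPM, and Bst1, a cell surface ADP-ribosyl cyclase, at 33.5 and 2.59 CPM, reached 20 CPM in 20 and 16 members. Without plate EC6, the log2 ratio of Bst1 was 2.50 instead of 3.26.

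**Figure D2:**
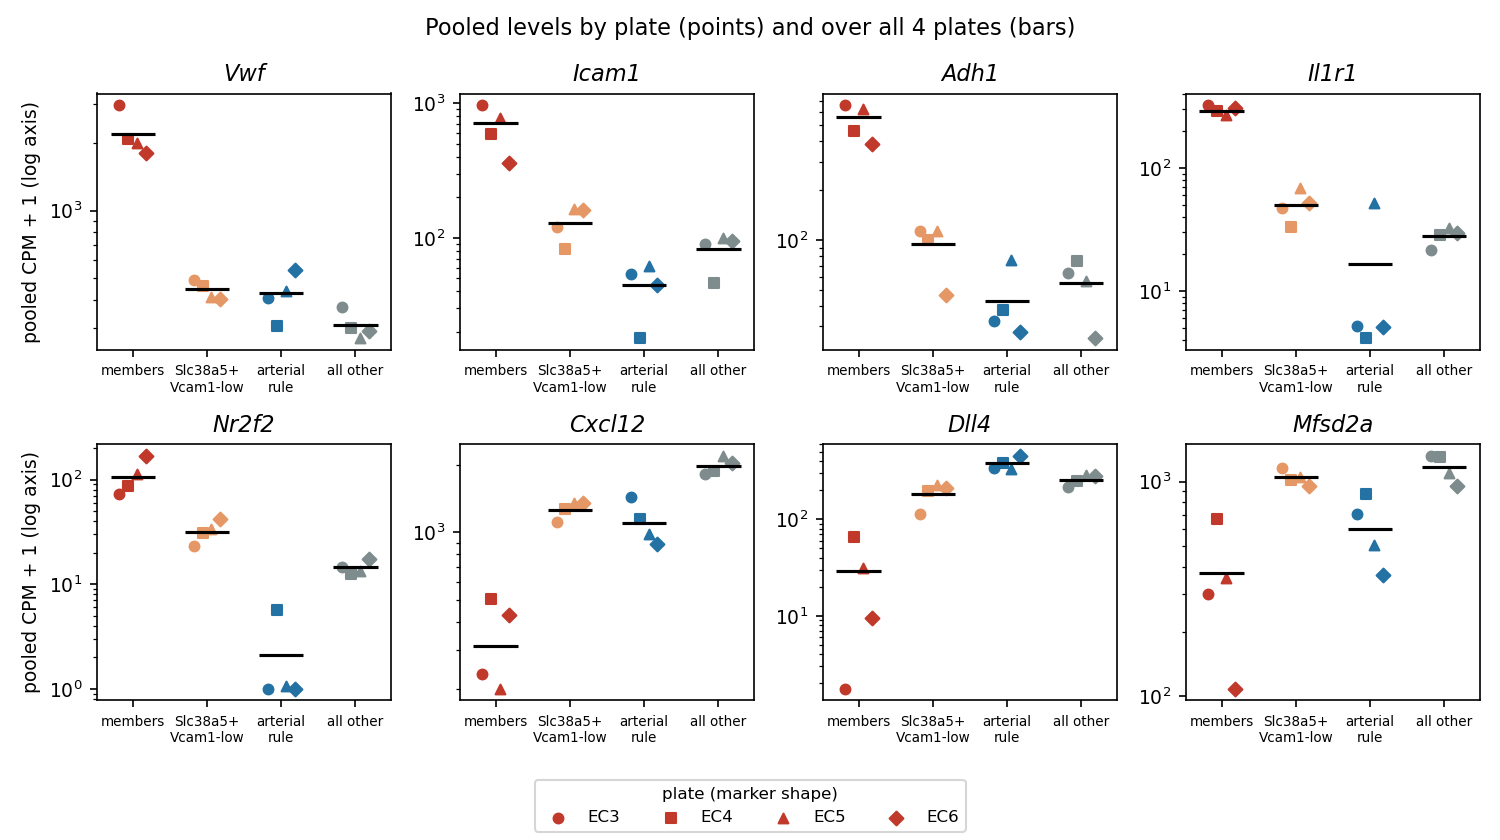
Pooled CPM plus 1 of single genes on a log axis in members, Slc38a5-positive Vcam1-low cells, arterial-rule cells and all other Cldn5-eGFP cells, with 1 marker shape per plate and a bar at the value over all 4 plates. For Vwf, the 4 plates of members lie between 1800.3 and 2956 CPM, above the 4 plates of other Cldn5-eGFP cells at 269 to 371 CPM.

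The number of the 4 genes Vwf, Icam1, Il1r1 and Nr2f2 read in each cell was counted. All 4 are among the named higher genes, so their excess over other cells was set by the choice and is a description. At least 3 of them reached 20 CPM in 54 of 93 members (58.1%), against 26 of 390 Slc38a5-positive Vcam1-low cells (6.67%), 1 of 181 arterial-rule cells (0.552%) and 35 of 1352 other Cldn5-eGFP cells (2.59%). All 4 were read at that level in 20 members (21.5%) and in 3 other Cldn5-eGFP cells (0.222%). None of the 4 was read at that level in 2 members (2.15%) and 698 other cells (51.6%). These shares depend on depth, which had nearly equal medians in both sets. Within members, Vwf and Il1r1 had a Spearman correlation of 0.30 over the 93 cells, Vwf and Icam1 0.03, and Icam1 and Il1r1 0.22. These correlations share each cell's total and are given as a description.

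**Figure D3:**
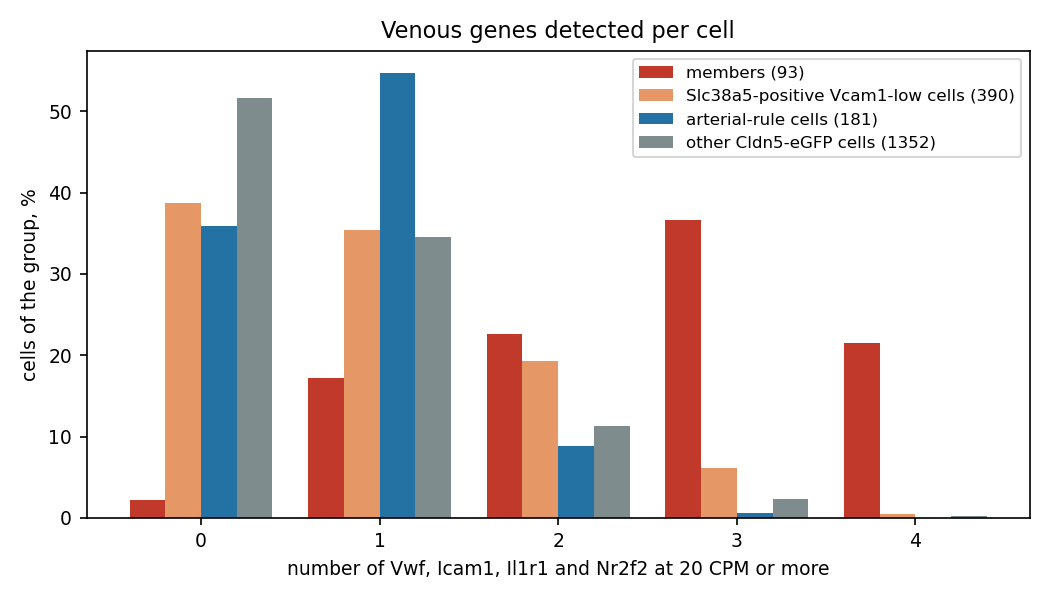
Bars give the share of each group's cells, in percent, by how many of Vwf, Icam1, Il1r1 and Nr2f2 reached 20 CPM. Of the 93 members 54 lie at 3 or 4 genes, and 698 of the 1352 other Cldn5-eGFP cells lie at 0 genes.

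Of the 17 genes on the venous list, 2 belong to the rule and 2, Selp and Car8, did not pass the filter on low values. Of the 13 tested, 12 were at least 2-fold higher in members than in other Cldn5-eGFP cells and none was lower, with a median log2 ratio of 2.88. A gene can pass that filter through its level in members alone, so the count is not that of a blind list. Beside those already named, Nrp2, a coreceptor for semaphorins and lymphatic growth factors, was at 228 CPM in members and 45.9 CPM in other cells. Flrt2, an adhesion and guidance protein, was at 316 and 53.0 CPM, and Prcp, a carboxypeptidase that trims angiotensin II, at 214 and 42.2 CPM. Prcp was highest on EC5 with 350.5 CPM, and without that plate it was at 123 CPM in members and 43.8 CPM in other cells. Ephb4, a receptor known from embryonic veins, was the listed gene that did not reach 2-fold, at 186 and 126 CPM.

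A few venous genes were read in a small number of members. Ackr1, a chemokine-binding receptor of postcapillary venules, was at 25.6, 10.7, 24.0 and 50.7 CPM in members on EC3 to EC6 and had no read in any of the 1352 other Cldn5-eGFP cells. It came from 7 of 93 members, and a count of 0 in 1352 cells allows a share of up to 0.222%. Lcn2, an iron-siderophore binder of the acute phase, was at 63.0, 8.99, 106 and 9.97 CPM in members and 0.619, 5.68, 5.59 and 1.38 CPM in other cells, and reached 20 CPM in 16 members. Without EC5 its members' level was 28.8 CPM, against 2.48 CPM in other cells. Lrg1, a leucine-rich acute phase glycoprotein, was at 19.0 CPM in members and 0.144 CPM in other cells, and reached 20 CPM in 6 members. All 7 members with Ackr1, all 16 with Lcn2 and all 6 with Lrg1 also had Vwf at 20 CPM or more. Vwf reached that level in 88 of all 93 members, so this overlap is near the share over members as a whole.

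Genes lower in members than in other Cldn5-eGFP cells were led by Alpl, Hey1, Rad54b, Unc5b, Plekhh2, Cdkn1c, Lrrn3, Gja1, Dll4, Ivns1abp, Cxcl12 and Arl15. Alpl, tissue alkaline phosphatase, was at 0.150, 38.7, 13.1 and 1.45 CPM in members and at 411, 349.9, 406 and 388 CPM in other cells. Hey1, a Notch-induced repressor, was at 4.83 CPM in members, 98.0% of it from 1 cell, against 143 CPM. Dll4, a Notch ligand of arterial and tip endothelium, was at 0.752, 64.8, 30.2 and 8.52 CPM in members and 214, 251, 289 and 278 CPM in other cells. The arterial list gave 9 of 10 tested genes at least 2-fold lower and none higher, with a median log2 ratio of -3.80; since the rule bars cells with arterial genes, this direction was partly set by the choice of members. Without EC4 the log2 ratio was -5.63 instead of -4.68 for Alpl and -3.81 instead of -3.14 for Dll4, and without EC5 it was -6.88 instead of -4.63 for Hey1, -4.03 instead of -3.28 for Gja1 and -3.59 instead of -2.70 for Ivns1abp. Likewise Unc5b was at -5.21 without EC4 instead of -3.79 and Plekhh2 at -4.68 instead of -3.58, Rad54b at -5.58 without EC5 instead of -4.20, and Lrrn3 at -4.15 without EC3 instead of -3.52.

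Cxcl12, a chemokine for cells with the receptor Cxcr4, was at 232, 503, 199.7 and 428 CPM in members and 1825, 1881, 2195 and 2035 CPM in other Cldn5-eGFP cells. Mfsd2a, which carries lysolipids with docosahexaenoic acid into the brain, was at 297, 667, 355 and 107 CPM in members and 1318, 1296, 1100.4 and 954 CPM in other cells. Both had every plate of members below every plate of the other cells, as for 682 of 9822 genes (6.94%). Of 12 tested capillary genes, 4 were at least 2-fold lower (Mfsd2a, Rgcc, Cxcl12 and Tmem100) and none higher. The other 8 were within 2-fold, among them Car4 and Tfrc. Car4 reached 20 CPM in 73 of 93 members and Tfrc in 67. Among members, Mfsd2a and Vwf had a Spearman correlation of -0.40 over the 93 cells. All 7 members with Ackr1 had Mfsd2a under 20 CPM, while 41 of all 93 members had it at 20 CPM or more.

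Smaller groups of genes stood on both sides of the comparison with other Cldn5-eGFP cells. Of 13 tested coagulation and fibrinolysis genes, 4 were at least 2-fold higher in members (Vwf, F8, F5 and Ptgis) and 1, the protease inhibitor Serpine2, lower. The log2 ratio of Serpine2 was -1.34, and -0.55 without EC5, which is under 2-fold, while F8, coagulation factor VIII, was read in 2 members. Of 21 transcription factors, Nr2f2 and Tshz2 were higher and none lower. Tshz2, a zinc finger protein, was at 112 CPM in members and 51.6 CPM in other cells. Sox17, which supports arterial identity in mice, was at 141, 195, 193 and 216 CPM in members and 287, 287, 304 and 318 CPM in other cells, lower on each plate but under 2-fold.

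Among growth factor genes, the neuropilins went opposite ways. Nrp2 is given above, and Nrp1, the coreceptor for VEGF-A, was at 192, 299, 246 and 56.5 CPM in members and 453, 443, 502 and 474 CPM in other cells. Of 20 tested genes in that list, Nrp2 and Aplnr were at least 2-fold higher and Nrp1, Angpt2 and Igfbp3 lower. The log2 ratio of Igfbp3 was -4.35 without EC3 instead of -2.12. Bmp4, a bone morphogenetic protein, was at 60.6, 38.3, 4.55 and 70.0 CPM in members and 0.412, 4.96, 3.11 and 0.119 CPM in other cells. It reached 20 CPM in 10 of 93 members and 8 of 1352 other cells (0.592%), and its plates overlapped through EC5, without which its log2 ratio was 4.33 instead of 3.53. Smad6, an inhibitor of that pathway, was at 1.24 and 9.40 CPM. Fn1, fibronectin, was at 2703, 1659, 2165 and 2753 CPM in members and 787, 863, 1034 and 1067 CPM in other cells. Another 2 listed genes rested on few members: Cd55, a complement inhibitor, was at 52.2 CPM on EC5 and at 0.290 CPM or less on the other plates, and 1 cell held 86.0% of the members' reads of Bgn, a matrix proteoglycan.

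The nearest cells in the line are the 390 Slc38a5-positive Vcam1-low cells, which also met the Slc38a5 threshold. The level of Slc38a5 still differed, with a median of 1697 CPM in members and 875 CPM in Vcam1-low cells. Of 9706 genes tested, 628 were at least 2-fold higher in members, which is 6.47%, and 641 were at least 2-fold lower, which is 6.6%. These shares are the background for the list counts against Vcam1-low cells over all plates. A gene can pass the filter through its level in members alone, as Ackr1 and Lrg1 did. Such a gene can only be counted as higher, so these are not counts of blind lists. The genes at the top included Cxcl1, Adh1, Il1r1, Icam1, Vwf, Bst1, Frmd5, Prcp, Car14, Fmo1 and Pvrl2. Vwf was at 2195 CPM in members and 445 CPM in Vcam1-low cells, Icam1 at 709 and 129 CPM, Il1r1 at 289 and 48.8 CPM, and Nr2f2 at 106 and 30.8 CPM. For each of these 4 genes the 4 plates of members lay above all 4 plates of Vcam1-low cells, as they did for 193 of all 9706 genes (1.99%). Of the 13 venous genes tested, 11 were at least 2-fold higher and none lower, with a median log2 ratio of 2.17. The log2 ratio of Bst1 was 1.39 without EC6 instead of 2.17, and that of Prcp 1.08 without EC5 instead of 1.90.

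Levels along Vcam1 were described in the cells that met the rest of the rule. Vcam1 was at 0 in 350 cells, above 0 and under 20 CPM in 40, from 20 to under 100 CPM in 8, from 100 to under 300 CPM in 6, and at 300 CPM or more in 79. Vwf was at 456, 347, 1078, 1301 and 2366 CPM in these steps. Nr2f2 was at 31.8, 22.1, 119, 81.9 and 106 CPM. Icam1 was at 102, 362, 117, 46.4 and 814 CPM and so did not follow the order of the steps. Mfsd2a was at 1090.4, 669, 1015, 417 and 310.2 CPM. The 2 middle steps hold 14 cells together, so their values rest on few cells.

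**Figure D4:**
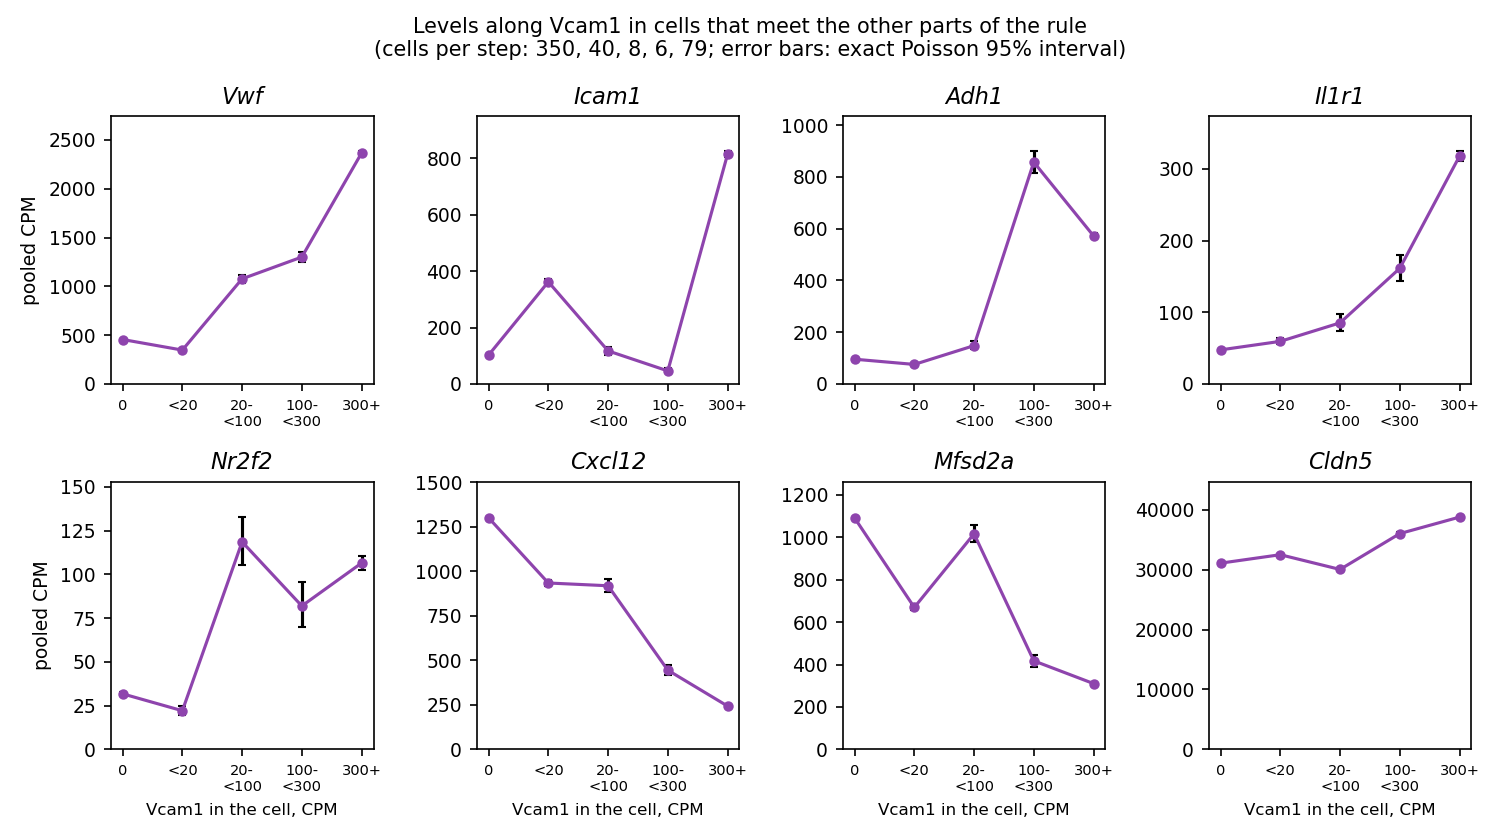
Pooled CPM of single genes, with exact Poisson 95% intervals, in 5 steps of Vcam1 among cells that met the other parts of the rule. Vwf is at 456 CPM in the 350 cells with no Vcam1 read and at 2366 CPM in the 79 cells of the highest step, while Mfsd2a is at 1090.4 CPM in those without and 310.2 CPM in those of the highest step.

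Cxcl1, a chemokine that attracts neutrophils, stood first against the Vcam1-low cells. It was at 18.2, 105, 269 and 218 CPM in members on EC3 to EC6, against 6.97, 0, 26.1 and 21.2 CPM in Vcam1-low cells. Members on EC3 overlapped with the Vcam1-low cells of EC5 and EC6. It was read at 20 CPM or more in 22 of 93 members and 11 of 390 Vcam1-low cells (2.82%), and also in 18 of 181 arterial-rule cells (9.94%). Ccl2, another chemokine of inflamed endothelium, had no read in members. Csf1, the macrophage growth factor, was at 94.3, 149.7, 187 and 181 CPM in members and 76.8, 32.9, 17.4 and 63.9 CPM in Vcam1-low cells, and reached 20 CPM in 46 members. Cx3cl1, the membrane-bound fractalkine, was at 281 CPM in members and 119.9 CPM in Vcam1-low cells.

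Promoters are shown for Icam1 and Cxcl1 because they are the 2 genes at the top of this comparison whose upstream window holds the kappaB palindrome GGAANTTCC, a form of the site that NF-kappaB dimers bind. The windows are the 250 bases before the RefSeq start of each gene in GRCm38.p6, Icam1 at chr9:21015690-21015939 and Cxcl1 at chr5:90890995-90891244, both on the plus strand, with the matches in capitals.
Icam1: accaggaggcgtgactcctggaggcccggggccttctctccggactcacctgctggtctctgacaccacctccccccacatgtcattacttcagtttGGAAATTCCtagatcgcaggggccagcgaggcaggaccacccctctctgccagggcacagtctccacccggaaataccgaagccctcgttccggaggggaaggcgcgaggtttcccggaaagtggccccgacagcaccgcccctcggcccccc
Cxcl1: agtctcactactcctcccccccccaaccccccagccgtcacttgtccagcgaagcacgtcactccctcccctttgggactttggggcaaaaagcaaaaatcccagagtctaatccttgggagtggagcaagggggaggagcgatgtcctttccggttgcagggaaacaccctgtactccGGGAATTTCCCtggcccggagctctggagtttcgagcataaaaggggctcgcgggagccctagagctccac
The Icam1 match starts 153 bases before the start site. The Cxcl1 run joins the palindrome, 70 bases before the start, with overlapping matches on both strands to the longer NF-kappaB consensus. Over all 32851 promoters of the table, read on both strands, 0.813% hold the palindrome, 7.25% the consensus and 7.72% either. Counted by gene, as the sets below are, these shares are 0.944%, 8.23% and 8.76%. Of the 12 genes highest against the Vcam1-low cells, 7 have a promoter in the table and 3 of these hold a match (Cxcl1, Icam1 and Il1r1). Of the 12 lowest, 10 have one and 3 of these hold a match (Dll4, Ivns1abp and Slc1a1), none of them the palindrome. A match in these letters is a description and not a bound site. Vcam1, Vwf and Relb have no entry in the table.

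The list of NF-kappaB and acute phase genes held 18 tested genes, of which 6 were at least 2-fold higher in members than in Vcam1-low cells (Relb, Nfkbie, Nfkbiz, Lcn2, Lrg1 and Ier3) and none lower, with a median log2 ratio of 0.73. Lrg1, at 19.0 CPM in members and 0.346 CPM in Vcam1-low cells, passed the filter through members alone. Another 6 listed genes did not pass the filter. Against other Cldn5-eGFP cells 7 of 18 were higher and none lower, with a median of 0.95. Relb, an NF-kappaB subunit, was at 60.5, 38.1, 99.7 and 139 CPM in members and 21.4, 9.94, 29.3 and 31.9 CPM in Vcam1-low cells, and reached 20 CPM in 29 of 93 and 32 of 390 cells. Nfkbia, the inhibitor that NF-kappaB induces, was at 1164 and 683 CPM and so under 2-fold. Tnfaip3, a deubiquitinase that limits the pathway, was at 95.1 and 60.9 CPM, with overlapping plates. Among 13 tested adhesion molecules, Icam1 and Pvrl2 were at least 2-fold higher and none lower. Pvrl2, the adhesion molecule nectin 2, was at 55.8 CPM in members and 14.8 CPM in Vcam1-low cells, and Icam2, another integrin ligand, at 637 and 484 CPM.

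Receptors for inflammatory signals gave 4 higher and 1 lower of 20 tested against Vcam1-low cells. Ackr1, with no read in Vcam1-low cells, passed the filter through members alone. Beside Il1r1 and Ackr1, the higher ones were the Toll-like receptors Tlr2, at 59.6 CPM in members and 19.9 CPM in Vcam1-low cells, and Tlr4, at 32.4 and 10.5 CPM. They reached 20 CPM in 13 and 8 members, and without EC5 the log2 ratio of Tlr4 was 2.48 instead of 1.54. Of the genes of prostaglandin and lipid mediators, 5 of 10 tested were higher and 1 lower; the list's median was 1.07 on the log2 scale. Ptgs2, the inducible cyclooxygenase, was at 34.9, 109, 119 and 138 CPM in members and 0.0259, 10.6, 3.84 and 0.0325 CPM in Vcam1-low cells. Ptgis, prostacyclin synthase, was at 121 and 37.9 CPM, and Cysltr1, a receptor of cysteinyl leukotrienes, at 52.5 and 2.05 CPM. Ch25h, which makes 25-hydroxycholesterol, was at 161, 0, 86.4 and 314 CPM in members and 3.34, 0.119, 3.61 and 4.54 CPM in Vcam1-low cells, absent from EC4. Ptgs2, Cysltr1 and Ch25h reached 20 CPM in 13, 12 and 18 members. Without EC4 the log2 ratio was 5.52 instead of 4.49 for Ptgs2 and 3.46 instead of 4.13 for Cysltr1, and without EC6 that of Cysltr1 was 5.24.

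Of 13 tested genes of MHC class I, which presents peptides to CD8 T cells, and of antigen processing, 3 were at least 2-fold higher in members than in Vcam1-low cells (H2-K1, H2-Q4 and Tap1) and none lower. The list's median log2 ratio was 0.56, and without EC5 it was 0.27 with 2 genes higher. Over all genes tested, 869 were at least 2-fold higher without EC5 and 628 with it. H2-K1 was at 2429, 2432, 4066 and 3942 CPM in members and 1170.0, 842, 2090.3 and 2128 CPM in Vcam1-low cells, and was read in nearly every cell of both. H2-D1 was at 1759 and 1049.6 CPM, and B2m, the shared light chain, at 7373 and 4989 CPM. For all 3 genes the plates of members lay above those of Vcam1-low cells, as for 193 of all 9706 genes (1.99%). Tap1, the peptide transporter, had a log2 ratio of 0.04 without EC5 against 1.01 with it. Against arterial-rule cells none of the 13 differed 2-fold. Interferon response genes gave 1 higher and 1 lower of 21 against Vcam1-low cells, near the 6.47% and 6.6% over all genes.

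Lower in members than in Vcam1-low cells were Plekhh2, Lrrn3, Gja1, Ivns1abp, Dll4, Slx1b, Tnfrsf21, Slc1a1, Klhl6, Cxcl12, Dok4 and Gpr155. Dll4 was at 28.2 CPM in members and 181 CPM in Vcam1-low cells, and Gja1, connexin 43, at 26.3 and 195 CPM. Slc1a1, a glutamate transporter, was at 43.9, 155, 125 and 0.623 CPM in members and 331, 412, 543 and 513 CPM in Vcam1-low cells. Ivns1abp was at 149 and 940.0 CPM, and 1 cell held 44.6% of its reads in members. Angpt2, a Tie2 ligand of sprouting vessels, was at 3.20 and 49.7 CPM, a log2 ratio of -3.60, of -2.97 without EC5 and of -4.28 without EC6. Without EC5 the log2 ratio against Vcam1-low cells was -4.70 instead of -2.17 for Hey1, -3.66 instead of -2.85 for Gja1, -3.49 instead of -2.65 for Ivns1abp and -1.49 instead of -2.32 for Tnfrsf21. Without EC4 it was -4.54 instead of -3.32 for Plekhh2 and -3.25 instead of -2.64 for Dll4, and without EC3 it was -3.88 instead of -3.26 for Lrrn3.

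Of 27 tested blood-brain barrier transporters, 1 was at least 2-fold higher in members than in Vcam1-low cells and 3 were lower (Mfsd2a, Slc1a1 and Slc29a4). The list's median log2 ratio was -0.32, and without EC5 it was -0.60 with 4 genes lower. Over all genes tested, 962 were at least 2-fold lower without EC5 and 641 with it, so the list's count is not read as a change. Slc2a1, the glucose transporter, was at 6888 and 7099.6 CPM. Slc7a5, which carries large neutral amino acids and thyroid hormone, was at 972 and 1752 CPM, and Tfrc, the transferrin receptor, at 806 and 1399.6 CPM, both with every plate of members below every plate of Vcam1-low cells, as for 408 of 9706 genes (4.2%). The single higher gene, the amino acid transporter Slc1a4, reached 20 CPM in 5 members, and its log2 ratio was 0.35 without EC4 instead of 1.69, which is under 2-fold. None of 14 tested junction genes and none of 19 Wnt and beta-catenin genes differed 2-fold in either direction, and Lef1, a transcription factor of that pathway, was at 639.8 and 722 CPM. None of 18 genes of oxidative phosphorylation did so either. Plvap, the diaphragm protein of fenestrated vessels, was at 0.0652 CPM in members and at 0 in Vcam1-low cells.

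**Figure D5:**
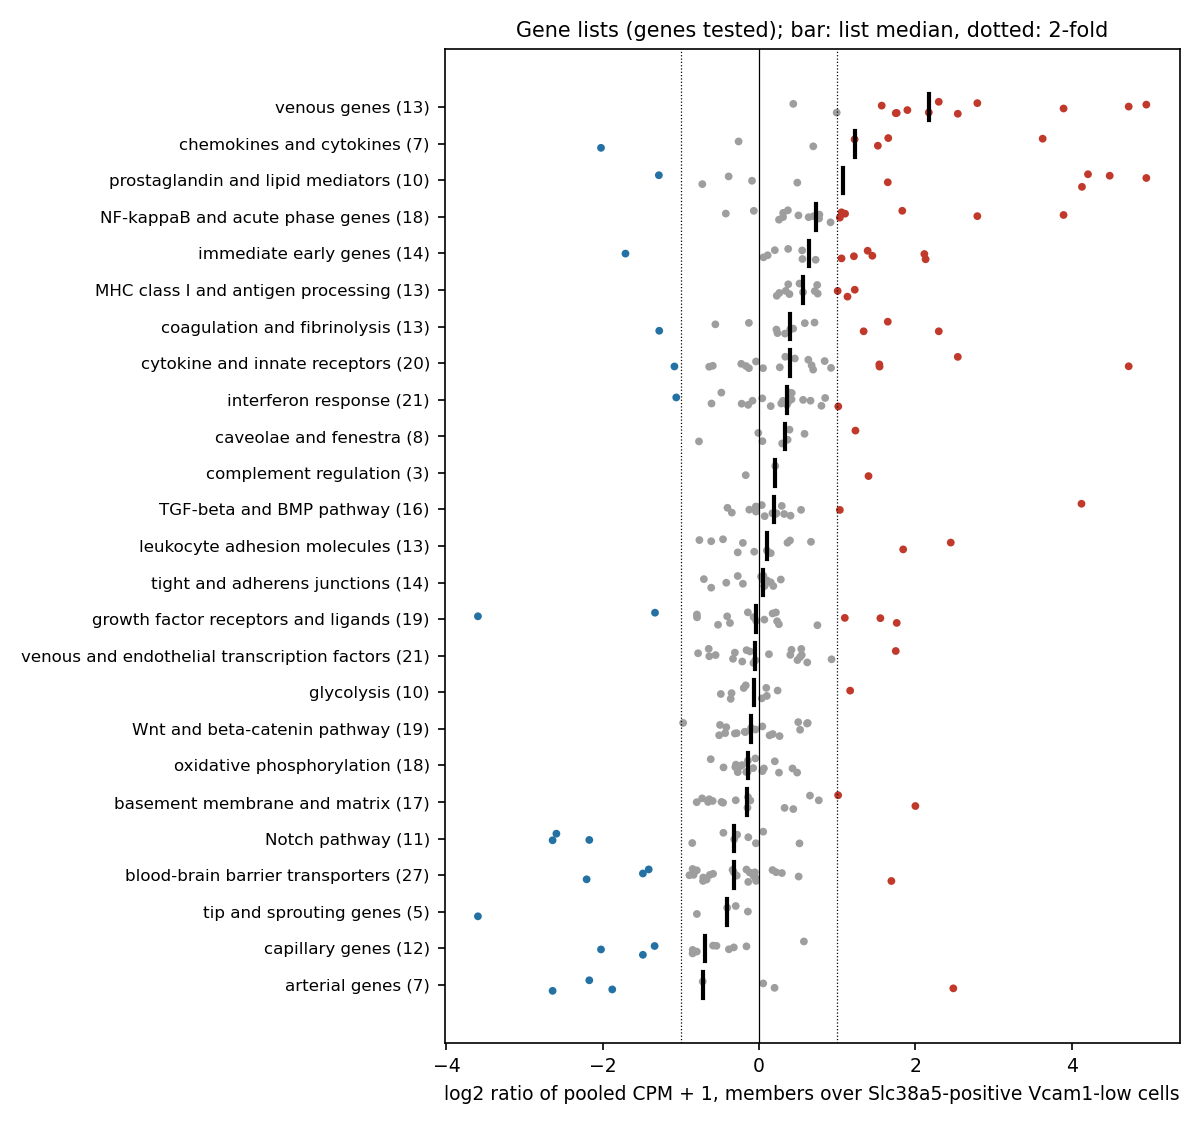
Log2 ratios of pooled CPM plus 1, members over Slc38a5-positive Vcam1-low cells, with 1 point per tested gene of each list, a bar at the list's median and dotted lines at 2-fold. The venous list has its median at 2.17 and the junction list at 0.05.

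Against the 181 arterial-rule cells, 884 of 9864 genes were at least 2-fold higher in members, which is 8.96%, and 1044 were lower, which is 10.6%. Of 13 venous genes tested, 10 were at least 2-fold higher and none lower. Among the 10, Ackr1, Lcn2 and Lrg1 had no read in arterial-rule cells and passed the filter through members alone. Of 12 capillary genes, 6 were higher (Car4, Tfrc, Slc16a1, Slc7a5, Slc22a8 and Hmcn1) and 2 lower (Cxcl12 and Tmem100). Car4, a carbonic anhydrase of capillary surfaces, was at 1198, 1518, 2112 and 1289 CPM in members and 0.868, 28.1, 1.46 and 7.91 CPM in arterial-rule cells. Its plates of members lay above all those of arterial-rule cells, as for 352 of 9864 genes (3.57%). Flrt2 was at 316 and 4.59 CPM, Rnase4, a secreted ribonuclease, at 423 and 5.95 CPM, and Nrp2 at 228 and 5.43 CPM. Without EC4 the log2 ratio was 8.52 instead of 7.33 for Car4 and 8.35 instead of 5.82 for Flrt2. Of the 27 barrier transporters 10 were at least 2-fold higher and 2 lower, among them Tfrc at 806 and 136 CPM, Slc16a1, which carries lactate and ketone bodies, at 1185 and 275 CPM, and Slc22a8, an organic anion transporter, at 1455 and 459 CPM. The log2 ratio of Slc16a1 was 1.47 without EC5 instead of 2.11. Slco1c1, a thyroid hormone transporter, was on the other side, at 1304 and 3009 CPM.

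The genes lowest against arterial-rule cells were Gja4, Gper1, Fbln2, Syt15, Atp2a3, Manr, Alpl, Hey1, Stmn2, Tmem100, Tnfrsf26 and Col14a1, and all 11 tested genes of the arterial list were at least 2-fold lower. Arterial genes chose the arterial-rule cells and barred members, so this direction was largely set by the choice of cells and is a description. Alpl was at 14.2 CPM in members and 1403 CPM in arterial-rule cells, and Gja4, connexin 37, was at 0.0978 and 382 CPM, with 3 reads in all members. For both genes every plate of members lay below every plate of arterial-rule cells, as for 579 of 9864 genes (5.87%). The log2 ratio of Alpl was -7.41 without EC4 instead of -6.53, and without EC5 it was -8.58 instead of -6.26 for Hey1, -7.26 instead of -5.95 for Tmem100 and -6.81 instead of -5.50 for Col14a1. Without EC3 that of Stmn2 was -7.96 instead of -6.07. Both sets shared some genes: Vwf was at 2195 CPM in members and 428 CPM in arterial-rule cells, and Vcam1 at 2076 CPM in members and 632 CPM in arterial-rule cells. Of 11 Notch pathway genes tested, 6 were lower in members and 1, Lfng, higher. Among the 6, Dll4, Jag1 and Hey1 are also on the arterial list, so the same limit holds for them. Fn1 was at 2260.0 CPM in members and 464 CPM in arterial-rule cells.

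Immediate early genes, which are known to respond to cell isolation, differed between members and the other sets, but not in 1 direction. Of 14 tested, 6 were at least 2-fold higher and 1 lower in members than in Vcam1-low cells. Against other Cldn5-eGFP cells 4 were higher and 1 lower, and against arterial-rule cells 1 was higher and 5 were lower. Fos was at 414 CPM in members, 282 CPM in Vcam1-low cells, 1189 CPM in arterial-rule cells and 537 CPM in other Cldn5-eGFP cells. Atf3 was at 81.8, 342, 363 and 62.5 CPM in members and 73.3, 48.4, 63.6 and 39.2 CPM in Vcam1-low cells, and Egr1 at 362, 28.1, 95.1 and 118 CPM against 30.9, 25.0, 48.5 and 22.7 CPM. Either gene reached 20 CPM in 39 of 93 members (41.9%), 57 of 390 Vcam1-low cells (14.6%), 65 of 181 arterial-rule cells (35.9%) and 264 of 1352 other Cldn5-eGFP cells (19.5%). With both sides limited to cells under that level, a comparison chosen after seeing the data, 54 members were left. Against Vcam1-low cells Vwf was then at 1682 and 441 CPM, Icam1 at 451 and 129.9 CPM, Il1r1 at 165 and 48.3 CPM, and Nr2f2 at 64.8 and 31.6 CPM. Adh1 was at 584 and 88.8 CPM. Over all 9659 genes tested in this setting against Vcam1-low cells, 798 were at least 2-fold higher (8.26%) and 1037 lower (10.7%). These shares are the background for the 2 lists that follow. Of 17 tested NF-kappaB and acute phase genes 3 were then higher and 1 lower, the median log2 ratio of the list was 0.37, and Ackr1 had no read in these 54 members. Of 9 tested prostaglandin and lipid mediator genes 4 were then higher and 2 lower, and the list's median log2 ratio turned to -0.26. The part of these genes in the results was not tested beyond these values.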

How the data were processed

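The deposited tables give raw counts, whole numbers of reads without molecular tags, from Smart-seq2 libraries of single sorted cells, per the labels' protocols. The gene counter, annotation and cell filters are not given in the sources; STAR 2.4.2a and mm10 are named, per the submitters' processing notes. The authors' normalized tables are treated as a score (values scaled per cell) and served only as an alternative; they gave the same 93 members.

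Every column was matched to 1 sample, and no pair of cells had identical counts. Counts of each set of cells were summed over 19937 genes and given as CPM with exact Poisson 95% intervals; shares have exact binomial intervals. Reads without molecular tags are not independent molecules, so these cover counting error only. Genes with a mean of at least 5 CPM over both pools were tested for size alone, as log2 of the ratio of CPM plus 1, and counted from 2-fold. No doublet caller was run; wells with 500 CPM or more of another cell class's markers were left out in an alternative. Named genes were the 12 largest ratios in each direction among genes with 20 CPM in the higher pool, reads in 25% of its cells and a 1.5-fold difference on every plate, without rule genes and eGFP, plus up to 4 members at each end of each gene list and the markers. The members and the lists were chosen with earlier results of these data known. One gene is not reported here. Of 516 list entries, 9 were under no symbol in the table. Alternatives covered thresholds, plates, depth, scaling, pseudocount, filter and wells. The pooled ratio was tested on simulated data with known fold changes. Promoters are from RefSeq (GRCm38.p6), gene positions from GENCODE M21 (GRCm38). Python 3.11.15, numpy 2.4.6, pandas 2.3.3, scipy 1.17.1 and matplotlib 3.10.9 were used.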

Additional observations from a re-analysis of the deposited data

Results flagged for a closer look

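Vcam1 reads also lay outside the endothelial line, in cells that no comparison above used. In the Pdgfrb-eGFP/NG2-dsRed line Vcam1 was at 5.92 CPM pooled, and 8 of 1484 cells reached 20 CPM (0.539%). In the Pdgfra-H2BGFP line it was at 802.1 CPM, and 69 of 257 cells reached 20 CPM (26.8%). The plates of the Pdgfra-H2BGFP line differed, with 1284 CPM on Pdgfra1 and 44.3 CPM on Pdgfra2.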

How the results depend on the processing

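Without each plate in turn, the number of members ran from 55 (without EC5) to 77, against 93 in all. Genes at least 2-fold higher or lower ran from 602 to 741 and from 819 to 1002 against other Cldn5-eGFP cells, from 700 to 869 and from 779 to 962 (without EC5) against Slc38a5-positive Vcam1-low cells, and from 1010 to 1151 and from 1202 to 1356 against arterial-rule cells. Counts followed the filter and the pseudocount. With a pseudocount of 10 CPM they were 202 higher and 277 lower, 216 and 223, and 460 and 581 in the 3 comparisons; with no filter 944 and 1647, 1155 and 1515, and 1492 and 1857; with a filter of 20 CPM 228 and 275, 258 and 246, and 433 and 504. With Atf3 and Egr1 low, chosen after seeing the data, 54 members were left, and 1084 and 1037 genes were lower than in other and Vcam1-low cells.

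A few named genes changed sign. Without EC3, the log2 ratio of Bgn was -0.73 against other cells, -0.17 against Vcam1-low cells and -1.71 against arterial-rule cells. Without EC5, that of Cd55 was -2.25 and -2.80 against other and Vcam1-low cells. With Atf3 and Egr1 low, Slc1a4 was at -0.079 and -0.31, Fosb at -1.86 and -0.83, and Bgn at -3.46, -3.24 and -3.20. The causes were not tested, but 1 cell held 86.0% of the members' Bgn reads. All other log2 ratios of named genes kept their sign: 1345 of 1350 values for 75 genes against other cells, 1219 of 1224 for 68 against Vcam1-low cells and 1672 of 1674 for 93 against arterial-rule cells did. Of the same values, 64 for 20 genes, 73 for 21 genes and 47 for 21 genes in these comparisons fell under 2-fold. The genes counted here were kept only if at least 2-fold apart with all cells, many of them also for agreement between plates. The filter and pseudocount settings cannot change a sign. The number of kept signs was thus partly set in advance and is a description. Precision is limited by the 93 cells, of which 38 lie on EC5. No paired analysis was possible because no result comes from a test; levels on the same plate are given side by side.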
